A study of Mus musculus with 30 samples.

Results

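The 45 genes described here encode the extracellular matrix of the liver and markers of the mesenchymal cells that make it. They were taken by symbol with no cutoff on a measured value, but the list was chosen with earlier results of these data known. Their shares beside those of all genes are therefore descriptions. The list holds 5 fibrillar collagens, 4 other interstitial collagens, 9 basement membrane genes, 8 genes of elastic fibres and collagen cross-linking, 3 small proteoglycans, 5 matricellular and small matrix proteins, 5 genes of matrix turnover and 6 genes of mesenchymal cells. At postnatal days 1 and 21 (PND1 and PND21) 44 of them were listed among 14259 genes, and at PND42 43 were listed among 13091. Timp1 was not analysed here, and Lox was not analysed at PND42.

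Livers came from CD-1 mice, an outbred stock, after exposure to cadmium chloride (CdCl2, 500 ppb) during gestation or after no such exposure, and total RNA was sequenced from whole tissue. Females were sampled at PND1 (4 control, 4 exposed) and PND21 (3 control, 3 exposed), and both sexes at PND42 (4 control and 4 exposed females, 4 control and 4 exposed males). No allele, transgene or postnatal treatment is named in the labels for any group, and the labels do not say which mice were litter mates or what the controls received. Replicate libraries are separate samples by their labels, so the p-values measure the spread between these samples only.

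The liver matrix is built mainly by stellate cells, the vitamin A-storing pericytes of the sinusoids, and by portal fibroblasts, smooth muscle and the mesothelium of the capsule. Fibrillar collagens and elastic fibres give the portal tracts, vessels and capsule their tensile strength and recoil. Along the sinusoids the matrix is sparse and built of basement membrane components, and activated stellate cells lay down fibrillar collagen there in fibrosis. Because whole liver was sequenced, fewer cells of a type and less RNA per cell cannot be told apart in any value below.

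Between 22.0 M and 40.1 M gene-assigned reads were counted per library, and all values are normalised counts (reads divided by the scaling factor of the library). The members took 0.119% to 0.41% of all counts in a library, so precision differs widely among them. Hepatocyte markers, 6 of 7 listed, summed to 991035 normalised counts or more in every library. Markers of quiescent stellate cells were listed for 12 of 12 genes at PND1 and PND21 and for 11 of 12 at PND42, without Gfap, and summed to 6618 to 17272 normalised counts over all libraries. PND1 and PND21 libraries share one scale, and the PND42 libraries another, so no member is compared between PND42 and the earlier ages.

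Per kilobase of exon, 4 members led at every age in the control livers. These were Col18a1 (the endostatin-bearing collagen of the vascular basement membrane), Sparc (a collagen-binding matricellular protein), Igfbp7 (a secreted binding protein of vessels) and Dcn (decorin, a small proteoglycan on collagen fibrils). In PND1 controls Col18a1 stood at 2842 normalised counts per kb (range 2498 to 3270) and Sparc at 1917 (1396 to 2502), and their ranges touched. Igfbp7 followed at 1106 per kb (937 to 1299), below every Sparc value, and Dcn at 504 (445 to 557), below every Igfbp7 value. Col3a1, the leading fibrillar collagen, came next at 379 per kb (131 to 736), a range that overlapped that of Dcn.

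In PND21 controls Igfbp7 stood at 3122 normalised counts per kb (2459 to 3706), Sparc at 3034 (2574 to 3473) and Col18a1 at 2597 (2078 to 2992), and these 3 ranges overlapped. Dcn reached 1309 per kb (1212 to 1489) and lay below all of them, and Col3a1 had 497 (349 to 574). In PND42 control females the order was Igfbp7 at 2783 per kb (1990 to 3884), Col18a1 at 2203 (1903 to 2541), Sparc at 1382 (933 to 1701), Dcn at 1240 (988 to 1437) and Bgn at 576 (370 to 707). Neighbours in that order overlapped except Dcn and Bgn, and Col18a1 and Sparc. PND42 control males had the same leading gene, with Igfbp7 at 3474 per kb (3069 to 3917), followed by Col18a1 at 2135 (1966 to 2313), Dcn at 1607 (1142 to 1865) and Sparc at 1543 (1208 to 1809), and only the last pair overlapped.

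The members also differed in how evenly they were expressed among livers of one group. In PND1 controls the highest library exceeded the lowest 1.22-fold for Reln (reelin, a secreted glycoprotein made by stellate cells), 1.25-fold for Dcn and 1.31-fold for Col18a1. The same ratio was 58.6-fold for Dpt (dermatopontin, a collagen-fibril organiser), 31.0-fold for Des (desmin, an intermediate filament of stellate and muscle cells) and 13.0-fold for Col1a1. In PND1 exposed livers it did not pass 7.9-fold for any member. The libraries behind these ranges are given with each comparison.

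Promoter sequence was at hand for 29 of the 45 members (RefSeq, GRCm38.p6), and 4 are shown because the results turn on these genes: Igfbp7, Bgn (biglycan, a small proteoglycan) and Mmp14 (the membrane-anchored matrix metalloproteinase MT1-MMP), which fell in exposed PND42 females, and Reln, which did not pass the test there. Each is the 250 bases before the transcription start on the strand of the gene. They lie at chr5:77408046-77408295 (Igfbp7, minus strand), chrX:73483351-73483600 (Bgn, plus strand), chr14:54431348-54431597 (Mmp14, plus strand) and chr5:22344706-22344955 (Reln, minus strand). Capitals mark the GC box GGGCGG or its reverse complement CCGCCC, the core letters bound by Sp1-family factors.
Igfbp7: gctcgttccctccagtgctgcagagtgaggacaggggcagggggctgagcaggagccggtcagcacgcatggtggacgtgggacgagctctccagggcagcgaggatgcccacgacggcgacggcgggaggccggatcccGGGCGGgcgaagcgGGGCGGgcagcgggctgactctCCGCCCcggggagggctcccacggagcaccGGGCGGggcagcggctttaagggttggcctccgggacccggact
Bgn: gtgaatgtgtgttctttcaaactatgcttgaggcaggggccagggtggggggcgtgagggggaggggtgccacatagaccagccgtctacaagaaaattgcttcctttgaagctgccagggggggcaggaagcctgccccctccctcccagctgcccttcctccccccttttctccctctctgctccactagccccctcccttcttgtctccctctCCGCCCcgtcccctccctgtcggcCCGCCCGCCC
Mmp14: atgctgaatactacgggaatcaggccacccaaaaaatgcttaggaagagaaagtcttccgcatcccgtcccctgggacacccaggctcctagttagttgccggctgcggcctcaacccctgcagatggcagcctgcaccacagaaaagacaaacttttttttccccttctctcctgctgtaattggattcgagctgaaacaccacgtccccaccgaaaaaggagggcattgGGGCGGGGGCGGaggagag
Reln: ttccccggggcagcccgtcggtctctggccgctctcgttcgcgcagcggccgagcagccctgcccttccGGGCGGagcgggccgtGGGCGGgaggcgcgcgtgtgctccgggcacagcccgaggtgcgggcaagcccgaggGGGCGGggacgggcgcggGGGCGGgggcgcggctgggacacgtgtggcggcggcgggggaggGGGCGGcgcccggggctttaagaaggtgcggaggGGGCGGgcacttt
The searches covered both strands, overlapping matches included. They found 4 GC boxes before Igfbp7, 3 before Bgn, 2 before Mmp14 and 6 before Reln. Among 34 windows of the matched members (some genes have more than 1 start) 20 held GGGCGG, or 58.8%, against 32.7% of all 32851 promoter windows of that length. CCAAT was found in 10 of the 34 windows (29.4%, against 33.8% of all) and TATAAA in 2 (5.88%, against 12.4%). The CArG box, the site of serum response factor at smooth muscle genes, matched 0 of the 34 windows and 1.47% of all. At so low a share, 34 windows are too few to tell 0 from the background. Tagln was not among the matched members, so its promoter was not searched. Of the 34 windows 16 are free of annotated exons in GENCODE, the 4 shown among them, while 217 of the 250 bases of the Acta2 window lie in an exon, as do all 250 for Col4a1 and Col4a2. The starts of Col4a1 and Col4a2, which encode the chains of the main network collagen of basement membranes, lie 21 bases apart on opposite strands, with 5′ ends that overlap. These matches describe letters in a window and not bound sites.

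At PND1, no matrix or mesenchymal gene differed between exposed and control females beyond the spread of the livers, and a strong contrast lay within the control group instead. In the limma fit 0 of 44 members passed an adjusted p of 0.05, beside 0% of all 14059 genes tested. limma's voom on recovered reads called 0 members too. At an unadjusted p under 0.05 the count was 0 members, beside 14.5% of all genes. The member median was a log2 fold change of -0.12 (all genes -0.01), with 13 of 44 above 0, beside 49.2% of all genes. With 1 library left out in turn, that count of members above 0 ran from 5 to 28.

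Fibrillar collagens varied among the PND1 controls more than between the groups. Col1a1, the main chain of type I collagen, stood at 386, 2948, 589 and 5034 normalised counts in controls 1 to 4 and at 2865, 1353, 950 and 1099 in exposed livers 1 to 4. Col3a1, the type III chain, stood at 1354, 5024, 1288 and 7222 in the controls and at 3340, 2533, 2546 and 2304 in the exposed. Controls 2 and 4 were the highest for both genes and controls 1 and 3 the lowest, so the exposed group lay inside the control range. Their log2 fold changes were 0.07 ± 0.88 (SE) and -0.09 ± 0.56, with adjusted p of 0.983 and 0.96 (limma).

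The elastic fibre and cross-linking genes were also highest in controls 2 and 4, except Loxl2. In controls 1 to 4 Loxl2 read 302, 326, 418 and 597 normalised counts. Eln, which encodes elastin, read 404, 3416, 456 and 4327 normalised counts in the controls and 4179, 978, 1461 and 1104 in the exposed livers. Lox, the lysyl oxidase that cross-links collagen and elastin, read 62.3, 277, 81.2 and 276 in the controls and 179, 89.8, 117 and 122 in the exposed. Exposed liver 1 was the highest of its group for both, and the groups overlapped. Dpt was lowest in controls 1 and 3 at 11.3 and 3.82 counts and highest in controls 2 and 4 at 195 and 224, with 15.9 to 125 in the exposed.

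Other members hardly moved among the same livers. Dcn read 2597, 3251, 2683 and 3231 normalised counts in controls and 3056, 2802, 2668 and 2472 in exposed livers. Igfbp7 read 1244, 1401, 1133 and 1571 in controls and 1598, 1543, 1364 and 1193 in exposed livers. Both groups overlapped for both genes. The members with the lowest unadjusted p were Loxl2 (a lysyl oxidase-like enzyme active on type IV collagen) at -0.46 ± 0.21, Pdgfra at -0.42 ± 0.19 and Pdgfrb at 0.35 ± 0.16, the 2 receptors for platelet-derived growth factors, with adjusted p of 0.348 to 0.353 (limma).

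Mesothelial markers were highest in controls 2 and 4, the livers high in collagen. These markers, 6 of 8 listed (without Lrrn4 and Muc16), summed to 143, 1372, 139 and 904 normalised counts in controls 1 to 4 and to 263, 242, 456 and 248 in exposed livers. The portal fibroblast markers, 7 of 8 listed (Entpd2 was not) and 2 of them members (Fbln2 and Eln), summed to 748, 4303, 799 and 5073 in the controls and to 4917, 1444, 1900 and 1479 in the exposed, mostly from Eln itself. Without the 2 members that sum was 225, 575, 297 and 451 in the controls and 452, 345, 312 and 275 in the exposed. Their part in the result was not tested.

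Des was the member most tied to 1 library. It read 135, 4193, 145.3 and 231 normalised counts in PND1 controls 1 to 4 and 188, 206, 180 and 203 in the exposed livers. Control 2 stood apart, and in that library Mylpf, a myosin light chain of fast skeletal muscle and the only one of 7 skeletal muscle markers listed, read 6015 counts beside 73 to 95 in the other controls and 88 to 121 in the exposed. The log2 fold change of Des was -0.94 ± 1.08 with that library and 0.23 without it, a choice made after seeing the values. The part of muscle RNA in the result was not tested.

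**Figure D1:**
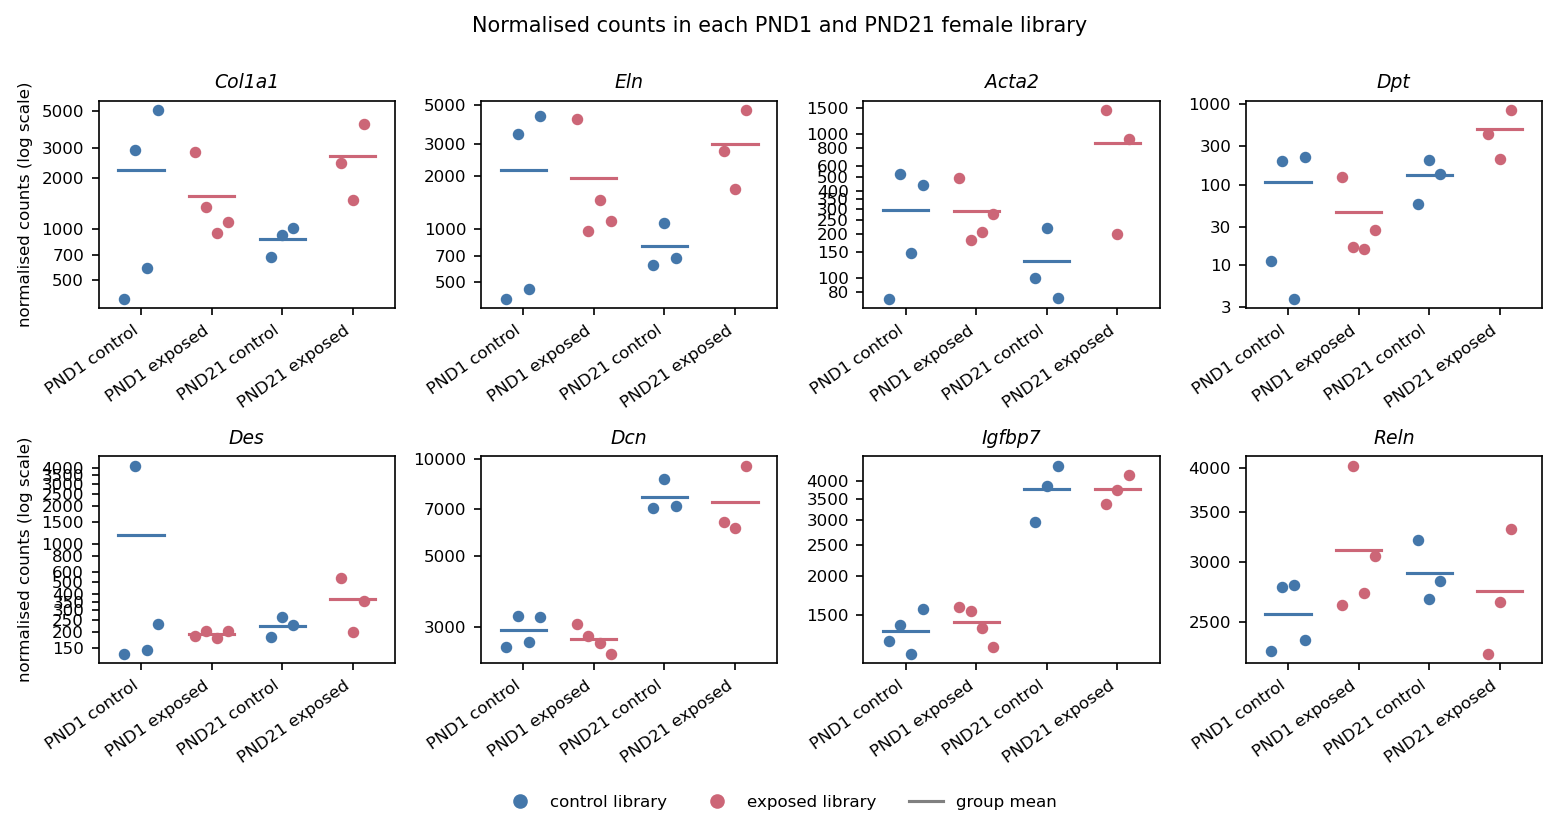
Normalised counts (log axis) of 8 members in each PND1 and PND21 female library, with points for libraries, colours for control and exposed, and a bar at the group mean. Col1a1, Eln and Dpt split the PND1 controls into a low and a high pair, Des has 1 PND1 control at 4193, and Dcn, Igfbp7 and Reln lie close together within each group.

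At PND21 the collagen, elastic fibre and contractile members lay higher in the exposed livers by their means, with all 5 fibrillar collagens higher in each of 3 exposed females than in any of 3 controls, but none passed the test across all genes. The largest log2 fold changes were those of Acta2 (smooth muscle actin, the classic marker of contractile mesenchymal cells) at 2.46 ± 0.79, Lox at 2.18 ± 0.72 and Fbln1 (fibulin-1, an elastic fibre and basement membrane glycoprotein) at 2.17 ± 0.71. Decorin, reelin, Igfbp7 and Col14a1 (the fibril-associated type XIV collagen) had values between -0.09 and 0.01, and Reln, Dcn and Col14a1 turned to 0.14, 0.16 and 0.20 under scaling by total reads. In limma 0 of 44 members had an adjusted p under 0.05, beside 0.036% of 13886 genes, and the lowest adjusted p was 0.341. voom called 0 members, beside 0.0144% of genes.

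Without adjustment for the number of genes, 15 of 44 members had p under 0.05, all with higher means in exposed livers, beside 5.09% of all genes in that direction. A log2 fold change above 0 was found for 41 of 44 members, beside 48.9% of all genes, and the member median was 0.57 (all genes -0.01). Every exposed library lay above every control library for 16 members, beside 7.99% of all genes. Of the members, 5 had an adjusted p under 0.05 in the authors' deposited table, all higher, beside 1.66% of its genes in that direction. In the authors' deposited table these were Tagln (1.92, adjusted p 0.0142), Pdgfrb (0.76, 0.0286), Acta2 (2.71, 0.0371), Lox (2.14, 0.0439) and Col5a2 (1.07, 0.0449), with the log2 fold change first.

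The fibrillar collagens had a median log2 fold change of 1.04. Col1a1 read 686, 920 and 1008 normalised counts in PND21 controls 1 to 3 and 2449, 1489 and 4156 in exposed livers 1 to 3. Col5a2, a chain of the type V collagen that nucleates fibrils, read 165, 151.5 and 262 in controls and 340, 326 and 549 in exposed livers. Exposed liver 3 was the highest for both and the groups did not overlap. Their log2 fold changes were 1.52 ± 0.35 and 1.07 ± 0.29, with limma adjusted p of 0.348 and 0.389. For Col1a2, the second chain of type I collagen, controls read 1462, 1720 and 1969 counts and exposed livers 2978, 2372 and 6072. Col3a1 read 3421, 5638 and 5571 in controls and 6484, 5645 and 11881 in exposed livers, and here exposed liver 2 lay just above the highest control. Col5a1 gave the smallest difference of the 5 at 0.33 ± 0.17.

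The elastic fibre and cross-linking genes had a median of 1.21, and 5 of 8 had an unadjusted p under 0.05. Eln read 624, 1085 and 686 normalised counts in controls and 2749, 1677 and 4669 in exposed livers. Lox read 5.84, 38.5 and 20.8 in controls and 52.7, 55.2 and 182 in exposed livers, so it was counted in few reads. Exposed liver 3 was again the highest and the groups did not overlap for either gene. Fbln2 (fibulin-2, an elastic fibre glycoprotein of portal fibroblasts) differed by 1.18 ± 0.36 and Fbn1 (fibrillin-1, the backbone of microfibrils) by 0.96 ± 0.38, with adjusted p of 0.426 and 0.491 (limma). Fbln5 (fibulin-5, which guides elastin assembly) gave 0.43 ± 0.24 and Loxl1, the elastin cross-linker, 1.25 ± 0.70, and neither reached an unadjusted p of 0.05.

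The mesenchymal cell genes had a median of 0.67, and 3 of 6 had an unadjusted p under 0.05. Acta2 read 99.2, 221 and 72.0 normalised counts in controls and 1450, 202 and 916 in exposed livers, and exposed liver 2 lay inside the control range. Tagln (transgelin, an actin-binding protein of contractile cells) read 159.01, 340 and 183 in controls and 988, 378 and 1219 in exposed livers, with no overlap. Pdgfrb, the pericyte receptor, read 312, 355 and 296 in controls and 486, 469 and 681 in exposed livers, again with no overlap. Tagln differed by 1.84 ± 0.47 and Pdgfrb by 0.75 ± 0.20, both with adjusted p 0.389 (limma). Pdgfra read 142, 170 and 169 in controls and 177 to 178 in exposed livers, also without overlap, at 0.15 ± 0.21. Des gave 0.60 ± 0.34 and Reln -0.09 ± 0.20. Reln read 3209, 2682 and 2831 counts in controls and 2269, 2659 and 3327 in exposed livers, which overlapped.

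Among turnover genes Timp2, an inhibitor of metalloproteinases, read 247, 435 and 373 normalised counts in controls and 574, 493 and 857 in exposed livers, with no overlap and a log2 fold change of 0.87 ± 0.28. Mmp2, the gelatinase A that Timp2 binds, gave 1.44 ± 0.47, and their adjusted p were 0.444 and 0.45 (limma). Among small matrix proteins, Dpt gave 1.84 ± 0.60 and Mgp (matrix Gla protein, an inhibitor of calcification) 1.26 ± 0.44. Dpt read 58.4, 206 and 134 in controls and 423, 211 and 843 in exposed livers, and exposed liver 2 lay just above the highest control.

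Basement membrane and proteoglycan genes gave smaller differences. All 9 basement membrane genes had values above 0, with a median of 0.33, and 0 of 9 had an unadjusted p under 0.05. The highest was Col15a1, a collagen at the outer face of vascular basement membranes, at 0.83 ± 0.52. Nid1 (nidogen-1, a linker of laminin and type IV collagen) gave 0.61 ± 0.43 and Col18a1 0.16 ± 0.24. Of the proteoglycans, Lum (lumican) gave 0.54 ± 0.38, Bgn 0.39 ± 0.34 and Dcn -0.08 ± 0.24. Dcn read 7074, 8694 and 7160 normalised counts in controls and 6396, 6090 and 9567 in exposed livers, which overlapped.

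Genes of the same pathways outside the member list were read alongside, and 0 passed the test at PND21. Among all genes 48.9% had values above 0, and 5.09% had an unadjusted p under 0.05 with a higher mean (limma). Of 21 other matrix genes 18 had values above 0 and 11 an unadjusted p under 0.05, all higher, among them Mfap2 (a microfibril protein) at 1.67 ± 0.42 and Fmod (fibromodulin, a collagen-binding proteoglycan) at 2.88 ± 0.86. Of 25 genes of transforming growth factor beta (TGF-beta) and platelet-derived growth factor signalling, 19 were above 0 and 5 had an unadjusted p under 0.05, all higher, such as Ltbp2 (a latent TGF-beta-binding protein family member) at 1.76 ± 0.48. Collagen folding genes were split, with 7 of 14 above 0. Fkbp10, a collagen chaperone, gave 1.07 ± 0.27, and P4ha1, a prolyl hydroxylase subunit, gave -0.75 ± 0.23.

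Markers of other cell types were read beside these values at PND21. Smooth muscle markers, 8 of 8 listed, had 7 of 8 values above 0 and 6 with an unadjusted p under 0.05, led by Cnn1 (calponin) at 4.57 ± 1.40, though their sum was 8787 to 11121 normalised counts in controls and 8822 to 13220 in exposed livers. The portal fibroblast sum was 834 to 1413 in controls and 2011 to 5636 in exposed livers, with 7 of 8 listed, but most of it came from the members Eln and Fbln2. Without these it was 121 to 171 in controls and 150 to 509 in exposed livers, which overlapped. The mesothelial sum was 81.7 to 198 in controls and 143 to 431 in exposed livers, with 6 of 8 listed. The quiescent stellate markers, 12 of 12 listed, summed to 10184 to 14984 in controls and 12546 to 14538 in exposed livers. Hepatocyte markers, 6 of 7 listed, had 0 of 6 values above 0, with sums of 2129140 to 4526320 in controls and 1501920 to 2399830 in exposed livers, which overlapped, and 0 passed the test. Their part in the result was not tested. Without exposed liver 3 the member median was 0.33 in place of 0.57.

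The difference between the PND21 and PND1 effects was tested as an interaction, and 0 of 44 members passed, beside 0.014% of all genes, with 0 by voom. Unadjusted, 9 members had p under 0.05, all with the larger value at PND21, beside 5.32% of all genes in that direction. The 4 turnover genes were all among them. Timp2 gave an interaction of 1.29 ± 0.40, Mmp14 0.63 ± 0.25, Timp3 (the matrix-bound inhibitor) 1.16 ± 0.47 and Mmp2 1.87 ± 0.78, with limma adjusted p of 0.368 to 0.504.

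**Figure D2:**
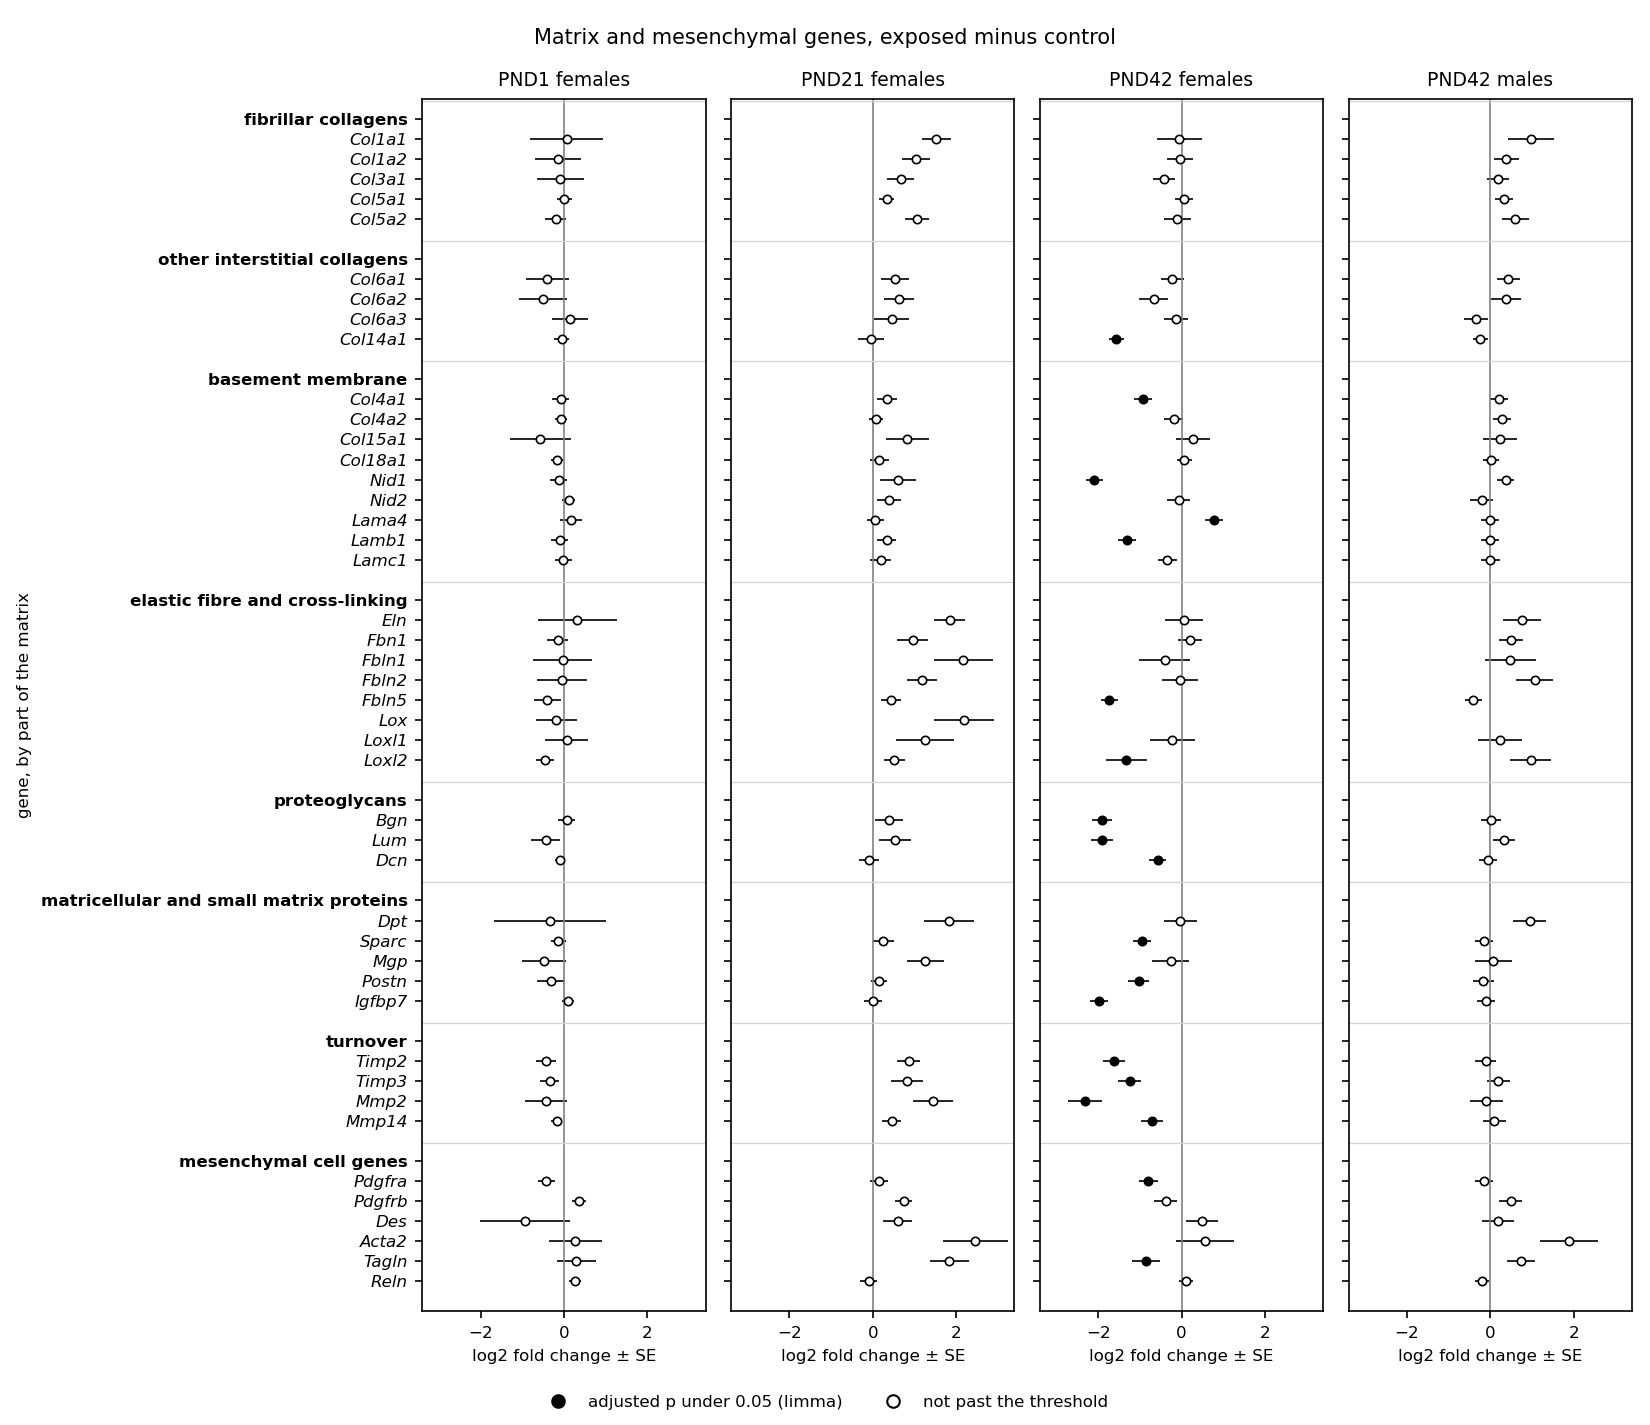
Log2 fold change of exposed against control with its standard error (horizontal axis) for every tested member, grouped by part of the matrix (vertical axis), in PND1 females, PND21 females, PND42 females and PND42 males. Filled points passed an adjusted p of 0.05 in limma: 19 members in PND42 females and 0 in the other groups.

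At PND42 exposed females had lower levels of the small proteoglycans, the turnover genes and 3 of 9 basement membrane genes, while the fibrillar collagens did not pass the test. In limma 19 of 43 members passed an adjusted p of 0.05, 18 lower and 1 higher, beside 40.2% of all 13091 genes, 21.4% lower and 18.9% higher. voom called 18, beside 42.7% of genes. All exposed values lay below all control values for 18 members, beside 23.5% of genes, and above them for 1, beside 22.3%. The member median was -0.38 (all genes 0.00), with 9 of 43 above 0, beside 50.1% of all genes.

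All 3 proteoglycans fell. Bgn read 4311, 3203 and 4290 normalised counts in controls 2 to 4 and 2258 in the unnumbered control, and 919, 861, 759 and 1118 in exposed females 1 to 4. Lum read 391, 648, 424 and 484 in the controls in the same order and 137, 95.0, 106 and 190 in the exposed. Neither gene overlapped between the groups. Bgn fell by 1.91 ± 0.23 and Lum by 1.90 ± 0.26 on the log2 scale, with adjusted p of 2.49e-05 and 5.21e-05 (limma). Dcn fell less, by 0.57 ± 0.21 with adjusted p 0.0368, from 5765 to 8388 counts in controls to 3627 to 5463 in exposed females.

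Of the matricellular and small matrix proteins 3 of 5 fell. Igfbp7, whose promoter is shown above with 4 GC boxes, read 4695, 2406, 3843 and 2512 normalised counts in the controls and 937, 711, 637 and 1061 in the exposed females. All 4 exposed females were low and none overlapped the controls. The log2 fold change was -1.98 ± 0.22 with adjusted p 1.38e-05 (limma). Sparc fell by 0.95 ± 0.22 and Postn (periostin, a matricellular protein of fibroblasts) by 1.03 ± 0.25. Dpt at -0.03 ± 0.39 and Mgp at -0.25 ± 0.44 did not pass. In level per kilobase Igfbp7 came to 692 normalised counts (527 to 877) in exposed females, under Col18a1 at 2315 (1826 to 2502), where in control females the ranges of these genes overlapped.

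The 4 turnover genes tested all fell. Mmp2 read 107, 77.8, 137 and 66.9 normalised counts in controls and 7.48, 22.4, 17.3 and 34.7 in exposed females. Timp2 read 505, 448, 566 and 407 in controls and 192, 129, 106 and 218 in exposed females. The groups did not overlap for either gene, and Mmp2 was counted in few reads in exposed females. The log2 fold change of Mmp2 was -2.32 ± 0.40 (limma adjusted p 0.000308), that of Timp2 -1.62 ± 0.26 (0.000172) and that of Timp3 -1.24 ± 0.27 (0.00188). Mmp14 fell by 0.71 ± 0.27, with adjusted p 0.0427.

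The basement membrane genes went in both directions. Nid1 read 446, 602, 514 and 475 normalised counts in controls and 110, 116, 99.3 and 154.4 in exposed females, and it had the lowest p of all members at -2.09 ± 0.21 (limma adjusted p 7.26e-06). Lamb1, the laminin beta-1 chain, fell by 1.31 ± 0.21 (adjusted p 0.000198). Lama4, the laminin alpha-4 chain of vessels, read 186, 187, 107 and 169 in controls and 297, 327, 255 and 221 in exposed females, and it was the only member that rose, by 0.78 ± 0.21 (adjusted p 0.0068). None of these groups overlapped. Nid2, the paralog of Nid1, gave -0.07 ± 0.28, Lamc1, the laminin gamma-1 chain, -0.34 ± 0.22, and Col18a1 0.07 ± 0.19, and these 3 did not pass.

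The paired type IV collagen genes parted in exposed females. Col4a1 read 985, 762, 980 and 748 normalised counts in controls and 440, 410, 471 and 495 in exposed females, with no overlap, and fell by 0.93 ± 0.21 (limma adjusted p 0.00235). Col4a2 read 610, 468, 754 and 476 in controls and 506, 450, 606 and 440 in exposed females, which overlapped, and gave -0.19 ± 0.22 (adjusted p 0.52). The ratio of Col4a1 to Col4a2 counts was 1.61, 1.63, 1.30 and 1.57 in control females and 0.869, 0.913, 0.778 and 1.12 in exposed females. In males it was 1.18, 1.17, 1.13 and 1.36 in controls and 1.31, 1.09, 1.13 and 1.06 in exposed livers. The ratio was looked at after the values of both genes were known, and it is given as a description with no test.

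Fibrillar collagens showed no such fall. Col1a1 read 320, 126, 286 and 81.6 normalised counts in controls and 189, 163, 114 and 232 in exposed females, and 0 of 5 fibrillar genes passed the test. Their log2 fold changes ran from -0.41 ± 0.26 for Col3a1 to 0.06 ± 0.21 for Col5a1. Col14a1, which binds to their fibrils, was different: it read 1977, 2100, 1499 and 1273 in controls and 614, 547, 435 and 706 in exposed females and fell by 1.56 ± 0.18 (limma adjusted p 1.57e-05). The type VI collagen chains Col6a1, Col6a2 and Col6a3 lay between -0.67 and -0.13 and did not pass.

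Of 7 elastic fibre and cross-linking genes 2 fell. Fbln5 read 259, 174, 260 and 272 normalised counts in controls and 76.9, 72.7, 51.1 and 87.5 in exposed females, without overlap, at -1.74 ± 0.21 (limma adjusted p 2.02e-05). Loxl2 fell by 1.32 ± 0.50 (adjusted p 0.0413). Eln, by contrast, read 130, 97.2, 176 and 64.1 in controls and 123, 91.0, 123 and 122 in exposed females, which overlapped, at 0.06 ± 0.45. Of the mesenchymal cell genes Pdgfra fell by 0.79 ± 0.23 and Tagln by 0.86 ± 0.33. Pdgfrb at -0.38 ± 0.28, Acta2 at 0.57 ± 0.69 and Reln at 0.11 ± 0.17 did not pass. Reln, with 6 GC boxes in the promoter shown, read 1999 to 2317 in controls and 1754 to 2818 in exposed females. Des gave 0.48 ± 0.39, and 0.01 without exposed female 4, whose Mylpf count was 1906 beside 16.5 to 113 in the other exposed females, a choice made after seeing the values.

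Under every alternative setting 15 of the 19 members were still called. The other 4 were Dcn, Loxl2, Mmp14 and Tagln, and Mmp14 or Tagln was lost when any 1 library was left out. Dcn was lost without exposed female 2 or 3 or without control 2, 4 or the unnumbered control, with adjusted p of 0.0583 to 0.134 (limma). Loxl2 was lost without any of exposed females 1 to 3 or controls 2 to 4. Loxl2, Mmp14 and Tagln were also lost under scaling by total reads or by upper quartile, with limma adjusted p of 0.0509 to 0.0663. Tagln was lost by voom too (adjusted p 0.0854), and Dcn with the replicate block (0.0552, limma).

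Of 55 pathway genes outside the member list 13 fell and 7 rose, or 23.6% and 12.7%, beside 21.4% and 18.9% of all genes, so the lower share was near the background. In collagen folding 4 of 14 fell and 0 rose, among them Crtap (a component of the prolyl 3-hydroxylase complex) by 1.60 ± 0.24 and Serpinh1 (the collagen chaperone HSP47) by 0.95 ± 0.29. In TGF-beta and platelet-derived growth factor signalling 5 of 23 rose and 3 fell, with the ligands Pdgfd at 1.53 ± 0.34 and Pdgfc at 1.10 ± 0.26, and with Itgb1 (the integrin beta-1 chain) at -1.34 ± 0.17 and the receptor Tgfbr2 at -1.21 ± 0.25. Of 18 other matrix genes 6 fell and 2 rose, with the proteoglycan Prelp at -2.33 ± 0.24 and Fn1 (fibronectin) at -0.92 ± 0.23, and with Agrn (agrin, of basement membranes) at 0.72 ± 0.21.

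Measures of RNA and of other cell types moved with the exposed females. Mitochondrial genes took 5.26% to 12.8% of counts in control females and 22.2% to 35.6% in exposed females. The nuclear RNA Malat1 read 20061 to 36008 normalised counts in controls and 75752 to 101019 in exposed females. Quiescent stellate markers, 11 of 12 listed, had 0 of 11 above 0, and 5 fell, among them Lrat (the retinol-esterifying enzyme) by 1.24 ± 0.25, with sums of 9372 to 17272 in controls and 6618 to 9466 in exposed females. Hepatocyte markers fell for 5 of 6, with sums of 2792980 to 3845410 and 1221860 to 2231900. The sums of smooth muscle and cholangiocyte markers were higher in exposed females without overlap. Smooth muscle markers, 5 of 8 listed, summed to 4473 to 7012 in controls and 7554 to 11974 in exposed females, and 1 of 5 rose. Cholangiocyte markers, 5 of 8 listed, summed to 448 to 643 and 948 to 1170, with 1 of 5 up and 1 down by the test. By exon length 6 of 11 members under 4 kb fell, 8 of 17 between 4 and 8 kb and 4 of 15 above 8 kb, where all genes of these classes had medians of -0.23, 0.07 and 0.40. The part of RNA quality, of cell makeup and of gene length in the result was not tested.

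**Figure D3:**
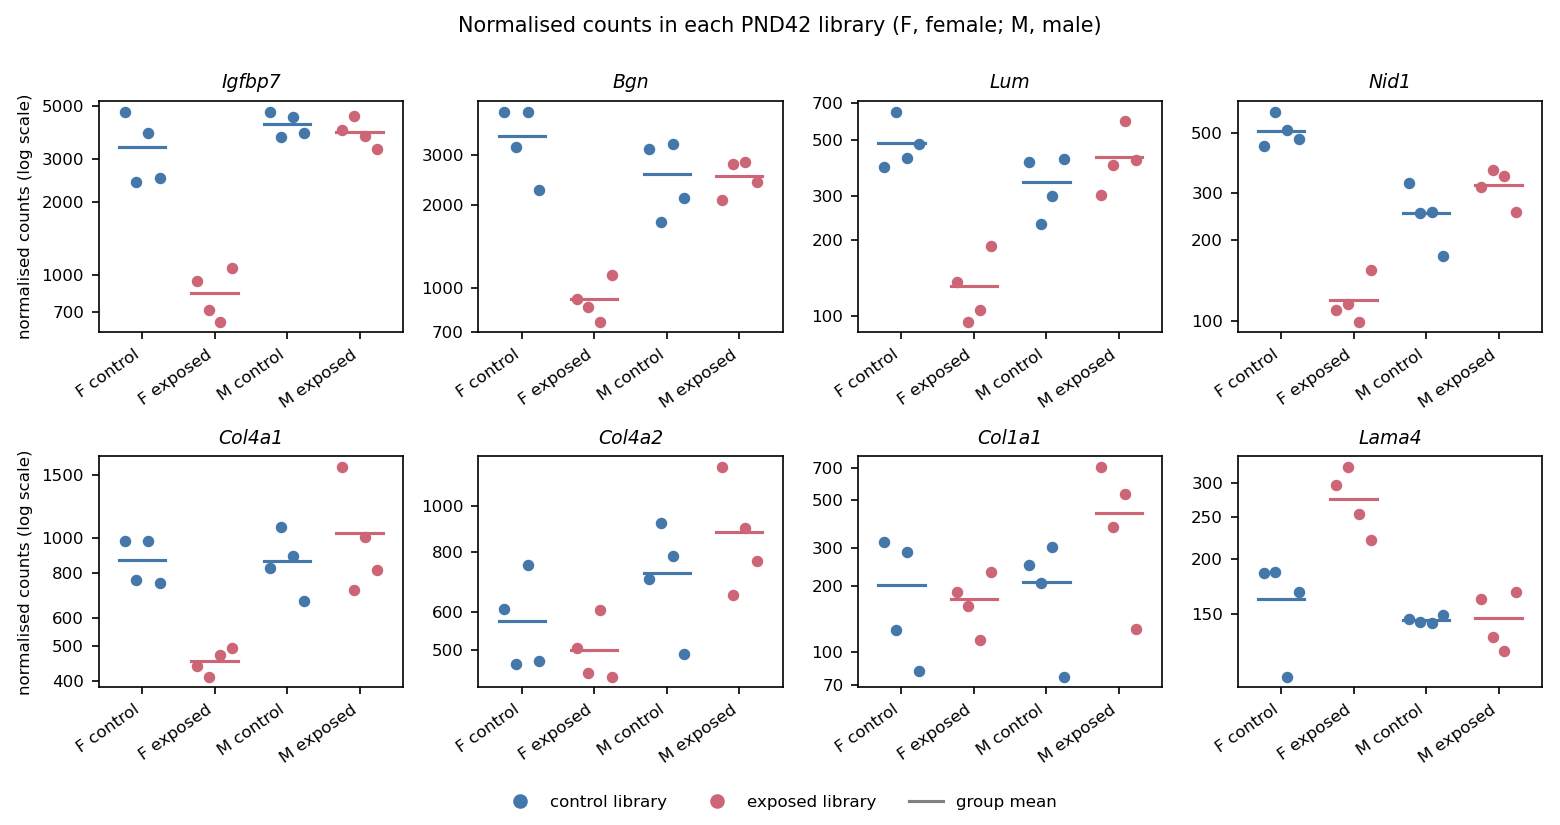
Normalised counts (log axis) of 8 members in each PND42 library, females and males, with points for libraries, colours for control and exposed, and a bar at the group mean. Igfbp7, Bgn, Lum, Nid1 and Col4a1 are lower in every exposed female than in any control female, Lama4 is higher, and Col4a2, Col1a1 and all 8 genes in males overlap.

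In PND42 males no member passed the test, and the genes with the lowest p were contractile and fibre genes with higher means in exposed livers. In limma 0 of 43 were called, beside 0% of 13091 genes, and voom called 0. Unadjusted, 4 members had p under 0.05, all higher, beside 3.73% of genes in that direction. The median was 0.20 (all genes -0.03), with 29 of 43 above 0, beside 47.1% of all genes. The smallest adjusted p was 0.622.

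Acta2 read 72.4 normalised counts in male control 1 and 73.3, 195 and 19.5 in the 3 unnumbered controls, and 247, 442, 452 and 81.9 in exposed males 1 to 4. Exposed male 4 lay inside the control range and the other 3 above it, with a log2 fold change of 1.89 ± 0.69. Fbln2 gave 1.07 ± 0.44, Dpt 0.94 ± 0.39 and Tagln 0.74 ± 0.33. Col1a1 read 250, 208, 303 and 76.6 in controls and 711, 377, 532 and 127 in exposed males, which overlapped, at 0.97 ± 0.55. Exposed male 4 was the lowest of its group for Acta2, Tagln and 4 of 5 fibrillar collagens. In 0 members did every exposed male lie above every control, beside 0.894% of genes.

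Fbln5 was the one member lower in every exposed male, beside 0.833% of all genes. It read 296, 281, 277 and 320 normalised counts in controls and 185, 246, 256 and 204 in exposed males, at -0.41 ± 0.21 with adjusted p 0.622 (limma). The proteoglycans overlapped: Bgn read 3155, 1733, 3288 and 2117 in controls and 2080, 2798, 2843 and 2406 in exposed males, at 0.02 ± 0.23. Nid1 read 327, 251, 254 and 174 in controls and 316, 363, 348 and 254 in exposed males, at 0.37 ± 0.21. Igfbp7 gave -0.11 ± 0.22 and Lama4 0.00 ± 0.21. Of the other pathway genes 0 passed, with 3 of 14 collagen folding genes, 12 of 23 signalling genes and 8 of 18 other matrix genes above 0. Smooth muscle markers, 5 of 8 listed (without Cnn1, Lmod1 and Synpo2), summed to 3938 to 7438 in control males and 5398 to 8317 in exposed males, and their part in the result was not tested.

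The exposure effect at PND42 differed between the sexes for 12 of 43 members by the interaction, all lower in females and 0 higher, beside 7.91% of all genes, 4.07% lower. These were Nid1 at -2.46 ± 0.29 (limma adjusted p 0.000395), Lum at -2.23 ± 0.37 (0.00332), Igfbp7 at -1.87 ± 0.31 (0.00332), Bgn at -1.92 ± 0.33 (0.00412), Col14a1 at -1.33 ± 0.25 (0.00685) and Fbln5 at -1.33 ± 0.29 (0.0143). The other 6 were Lamb1, Timp2, Mmp2, Col4a1, Timp3 and Tagln, with values from -2.22 to -1.13 and adjusted p of 0.0176 to 0.0456. Col4a1 was lost under scaling by total reads (adjusted p 0.0566) and the other 11 were called under each alternative. Exposed males held 14.5% to 29.7% mitochondrial counts and control males 9.05% to 24.9%, which overlapped where the female groups did not.

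Control females at PND21 had higher levels of decorin and Igfbp7 than control females at PND1. They had lower levels of Col5a1, Col5a2 and several laminin, nidogen and cross-linking genes. In limma 15 of 44 members passed, 4 higher and 11 lower at PND21 than at PND1, beside 52.9% of all 14233 genes, 26% higher and 26.9% lower. The share of members called lower was thus near that of all genes, and the share called higher was below it. The member median was -0.35 (all genes 0.01), with 12 of 44 above 0, beside 50.4% of all genes. With libraries scaled by their total reads the all-gene median became -0.50, with 2 members called higher and 19 lower, so the values here are relative to the median gene. These PND21 controls are also the controls of the PND21 exposure comparison.

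The 4 that rose were secreted small matrix proteins and a proteoglycan. Dcn, from 2597 to 3251 normalised counts at PND1, read 7074, 8694 and 7160 at PND21, at 1.38 ± 0.16 (limma adjusted p 6.66e-05). Igfbp7, from 1133 to 1571 at PND1, read 2973, 3869 and 4481 at PND21, at 1.49 ± 0.18 (adjusted p 8.7e-05). No PND1 library reached a PND21 library for either, and both were also called under scaling by total reads. Mgp gave 2.22 ± 0.63 and Sparc 0.69 ± 0.23, and neither was called under scaling by total reads (adjusted p 0.0524 and 0.563) or without PND21 control 2 (0.064 and 0.0623) or 3 (0.0535 and 0.107). Sparc was also lost without PND1 control 1 (0.0693) or 3 (0.076).

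Fibrillar and cross-linking genes that passed were lower at PND21. Col5a2 read 488, 988, 479 and 877 normalised counts at PND1 and 165, 151.5 and 262 at PND21, at -1.84 ± 0.30 (limma adjusted p 0.000667). Lox read 62.3, 277, 81.2 and 276 at PND1 and 5.84, 38.5 and 20.8 at PND21, at -2.97 ± 0.71 (adjusted p 0.00668). The ages did not overlap for either gene. Loxl2 fell by 1.43 ± 0.25, Fbn1 by 1.45 ± 0.28 and Col5a1 by 0.90 ± 0.22. Col1a1 at -0.66 ± 0.95, Col3a1 at 0.75 ± 0.65 and Eln at -0.73 ± 0.99 did not pass, and their PND1 controls held the low and the high pair given above.

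Of 9 basement membrane genes 4 fell and 0 rose with age. Nid1 read 994, 1198, 1261 and 2051 normalised counts at PND1 and 223, 480 and 530 at PND21, without overlap, at -1.78 ± 0.33 (limma adjusted p 0.00155). Lamc1 fell by 1.12 ± 0.29, Lamb1 by 1.00 ± 0.26 and Nid2 by 0.55 ± 0.18. Col18a1 at -0.14 ± 0.20 and Col4a2 at -0.19 ± 0.17 did not pass, though both were called lower under scaling by total reads. Mmp14 read 1424, 1899, 1744 and 2182 at PND1 and 721, 993 and 784 at PND21, at -1.12 ± 0.18 (adjusted p 0.000526). Pdgfrb fell by 0.58 ± 0.17, and Reln gave 0.18 ± 0.15, which did not pass and was below 0 under scaling by total reads (-0.33).

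Nid2 was lost without PND1 control 4 (limma adjusted p 0.072) and without PND21 control 2 (0.0887) or 3 (0.0516), and in 1 fit of all 4 groups (0.0556). Pdgfrb was lost without PND21 control 3 (0.0641). The other 11 of the 15, which hold Dcn, Igfbp7, Col5a2, Nid1 and Mmp14, were called under every alternative.

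Of 60 other genes of the pathway 19 were lower at PND21 and 7 higher, or 31.7% and 11.7%, beside 26.9% and 26% of all genes. In TGF-beta and platelet-derived growth factor signalling 8 of 25 fell and 2 rose, with Thbs1 (thrombospondin-1, an activator of latent TGF-beta) at -4.95 ± 0.19 and Tgfb1 at -2.53 ± 0.18. Of 21 other matrix genes 8 fell and 1 rose, with Tnc (tenascin-C, a matrix protein of growing tissue) at -2.82 ± 0.42 and Ecm1 (which holds TGF-beta latent) at 2.06 ± 0.19. In collagen folding 4 of 14 rose and 3 fell, with P4ha1 at 1.26 ± 0.19 and Fkbp10 at -2.54 ± 0.26. Beside these, 8 of 8 erythroid and 6 of 6 cell cycle markers fell and 5 of 6 hepatocyte markers rose. Of 12 quiescent stellate markers 3 rose and 4 fell, with sums of 8038 to 11252 at PND1 and 10184 to 14984 at PND21. Ecm1 is also one of these 12, and within those sums its mean was 1579 at PND1 and 6631 at PND21. Gfap was among the 4 that fell, at -5.31 ± 0.69. The part of these cell type markers in the result was not tested.

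**Figure D4:**
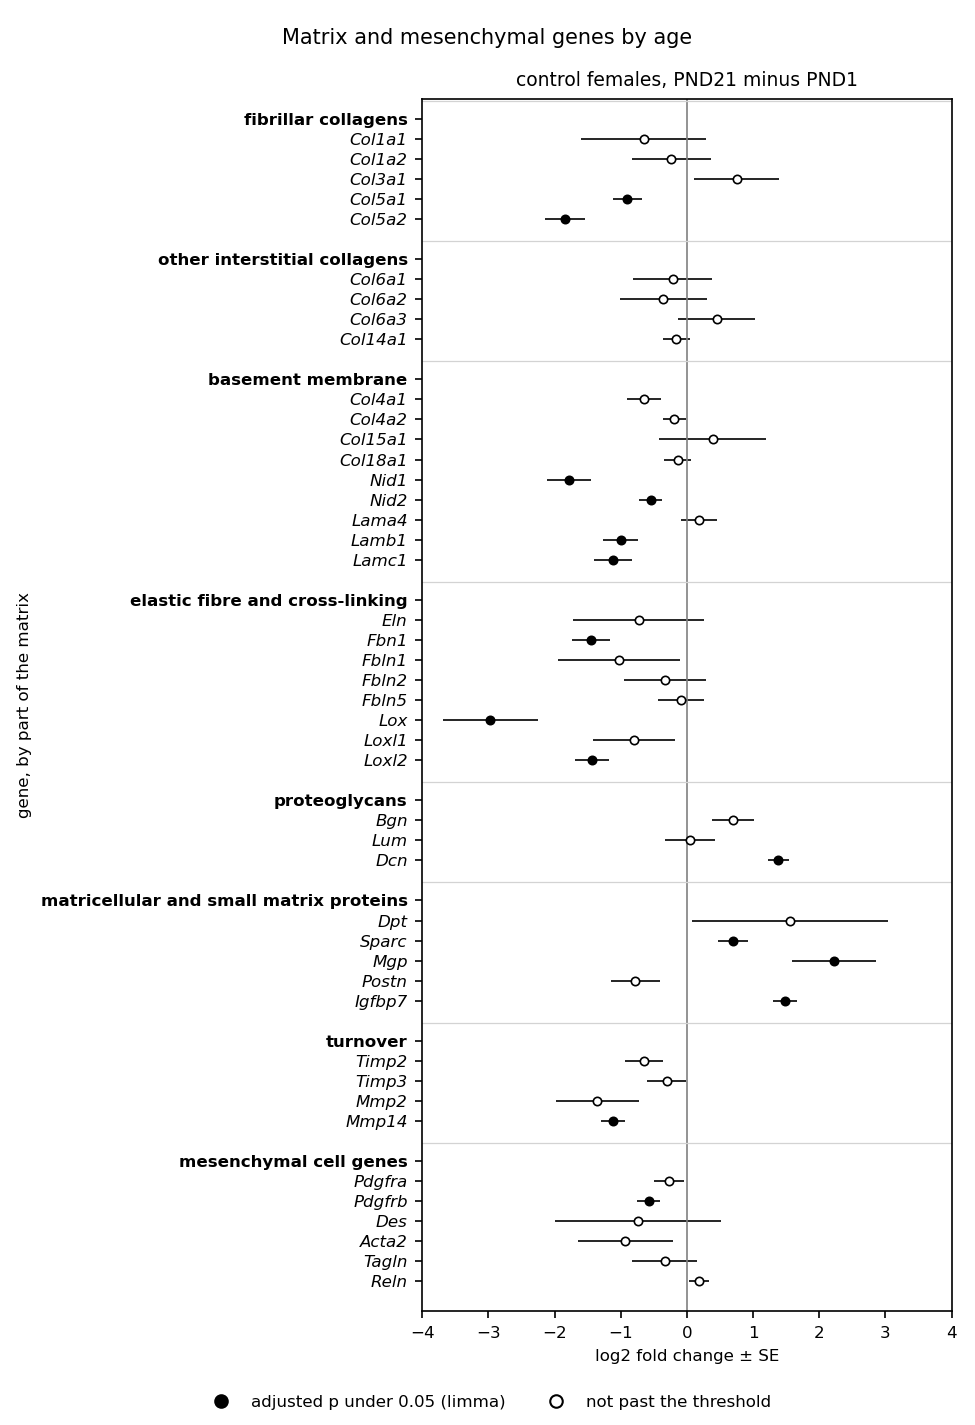
Log2 fold change of PND21 against PND1 control females with its standard error (horizontal axis) for every tested member, grouped by part of the matrix (vertical axis). Filled points passed an adjusted p of 0.05 in limma: Dcn, Igfbp7, Mgp and Sparc lie above 0 and 11 members, among them Lox, Col5a2 and Nid1, lie below.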

How the data were processed

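Whole-liver RNA-seq libraries (30 in all, single-end) were analysed. Per the submitters' processing notes FastQC, STAR and featureCounts were used with mm10, and versions and settings are not given in the sources used here. For each library and gene the authors deposited a log2 value. Tested on the files, these are log2 of normalised counts plus 1, and 100% of values gave whole reads within 0.1 of a read. PND1 and PND21 were scaled together and PND42 apart, so PND42 was not compared with PND21. The authors' deposited mean signal per gene (normalised counts) served only to check the scale, and the authors' log2 fold changes and adjusted p-values are quoted as such. A small adjusted p (under 0.05) was the threshold.

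Values were fitted in limma 3.58.1 (R 4.3.3, trend and robust variances) over all genes with at least 10 normalised counts in as many libraries as the smallest group, with Benjamini-Hochberg adjustment over all genes tested. All listed members passed that filter in every comparison. PND42 was 1 fit of its 4 groups, and differences between effects were interaction terms. The fits were tested on simulated data. Columns were matched to samples by name. At PND42 3 male and 1 female control columns carry no replicate number, and the tag of the female column is one the labels give to a PND21 control, so which sample it holds is unsure. Exon lengths came from GENCODE on GRCm38 and promoters from RefSeq. Members and lists were chosen with earlier results of these data known. Named members were those past the threshold, up to the 12 of lowest p, or the 8 of lowest p where fewer than 8 passed, with other members as descriptions of their part. Up to 4 genes of each pathway list were named by lowest p. Alternatives were a pseudocount of 5, no filter, scaling by total reads or upper quartile, voom on recovered reads, another set of groups in the fit, a replicate block and leaving out each library.

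Same-numbered libraries did not deviate together: the correlation of their deviations from the group means ran from -0.0802 to 0.233.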

Additional observations from a re-analysis of the deposited data

Results flagged for a closer look

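Of 113 groups of 4 looked at, 9 held a single liver far from the other 3, for 4 members and 5 summed parts. Chance gives about 1 in 20 groups such a value. The 113 groups did not cover every member in every group of livers, so the list is not complete. Des, which stood apart in PND1 control 2 as given above, is not among the 9. Fbln5 was low in PND42 female control 3 at 174.1 normalised counts (the others 259.3 to 272.2), and Lamb1 was high in PND42 exposed female 4 at 156.01 (88.67 to 97.12). At PND1, Lum was high in exposed liver 1 at 312.4 (219.7 to 229.3) and Timp3 in exposed liver 3 at 754.4 (441.8 to 470). By summed normalised counts, the basement membrane part was low in PND42 exposed female 2 at 14966 (19282 to 19775). Most of that sum was Col18a1, which read 12818 there and 17215, 17564 and 17429 in exposed females 1, 3 and 4. The elastic fibre part was high in PND1 exposed liver 1 at 5976 (2158 to 2762), where Eln alone read 4179. In males the fibrillar collagens were low in exposed male 4 at 2441 (5612 to 6264), the other interstitial collagens in an unnumbered control at 1882 (2103 to 2142), and the proteoglycans in another unnumbered control at 8633 (13253 to 13858).

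The exposure effect at PND42 differed between females and males for 12 members by the limma interaction, lower in females in each. On the log2 scale the differences were Nid1 -2.457, Lum -2.228, Mmp2 -2.225, Bgn -1.925, Igfbp7 -1.868, Tagln -1.595, Timp2 -1.505, Timp3 -1.432, Fbln5 -1.328, Col14a1 -1.327, Lamb1 -1.296 and Col4a1 -1.128.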

How the results depend on the processing

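The tally covers the counts of members called, the medians, the 8 to 12 members of lowest p in each comparison of 2 groups, and Des. Of their 834 values, over 62 results, 830 kept their direction and their side of the threshold (or, for medians and counts called, stayed within the spread or 1.5 times). Counts of members above 0 are outside the tally and moved more. Over all alternatives they ran from 5 to 28 at PND1, 39 to 44 at PND21 and 7 to 17 with age. At PND42 they ran from 5 to 14 in females and 26 to 33 in males. At PND1 the member median of -0.12 turned to 0.03 without control 2 and to 0.08 without control 4, and Des went from -0.94 to 0.23 without control 2. Pdgfrb with age was no longer called without PND21 control 3 (adjusted p 0.0641, limma). Counting every called member, 4 of 19 calls in PND42 females (Dcn, Loxl2, Mmp14 and Tagln), 4 of 15 with age (Mgp, Nid2, Pdgfrb and Sparc) and 1 of 12 between the sexes (Col4a1) were lost under at least 1 alternative. With 1 library left out in turn, the member medians ran from -0.289 to 0.0799 at PND1, from 0.329 to 0.772 at PND21, from -0.53 to -0.28 in PND42 females, from 0.107 to 0.325 in PND42 males and from -0.644 to -0.107 with age, and 15 to 18 members were called in PND42 females, 11 to 18 with age and 0 elsewhere. Scaling by total reads moved the all-gene median to 0.23 at PND21, with a member median of 0.80 and 44 of 44 above 0, and left 16 members called in PND42 females and 21 with age. A replicate block on the shared numbers left 0 members called at PND1 and PND21, 19 in PND42 females (3 numbered pairs) and 17 with age. The numbers were not shown to pair the livers. No paired analysis was possible because of the numbering among males, where the 2 groups have under 2 numbers in common. Depth limits the members counted in few reads, such as Lox, Fbln1 and Mmp2.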
